A study of Mus musculus with 12 samples.

Results

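RNA-sequencing counts of the oncofetal genes Hmga1, Hmga1b, Hmga2, Igf2bp1, Igf2bp2, Igf2bp3 and Lin28b were examined in mouse spindloid mammary tumour cells. These 7 genes were chosen by name as let-7-regulated oncofetal genes, and all 7 were found among the 55573 genes of the count table. The cell lines A1005, A1129 and A1471 each came from a separate breast tumour of the genotype MMTV-Metmt;Trp53fl/+;Cre, in which the MMTV promoter drives an activated Met transgene in mammary epithelium and the Cre recombinase deletes the floxed Trp53 allele. Tumourspheres of each line received DMSO (the vehicle), Crizotinib (a Met kinase inhibitor), PD173074 (an FGF receptor kinase inhibitor) or both inhibitors (the combination) for 24 h, at 1 µM of each inhibitor as the study describes. Every treatment therefore had 1 library from each line (n = 3), the transgene and the Trp53 allele were common to all 12 libraries, and each line stands for 1 tumour.

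Hmga1 and Hmga2 encode small architectural proteins of chromatin that bind AT-rich DNA through AT-hook motifs and change how transcription factors assemble on it. The Igf2bp genes encode RNA-binding proteins that control the stability, localisation and translation of mRNAs such as those of Myc and Cd44. Lin28b encodes an RNA-binding protein that blocks the maturation of the let-7 microRNAs, and let-7 in turn represses mRNAs of these families through matches to its seed in their 3′ UTRs. Most of these genes are abundant in the embryo, little expressed in adult tissue and often expressed again in tumours, while Igf2bp2 stays expressed in many adult tissues.

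The let-7 seed is the stretch that pairs with a target mRNA, and it is shown here because it defines the sites carried by the genes studied. RefSeq (GRCm38.p6) listed 11 mature let-7 and miR-98 entries with 9 distinct sequences, all with the same seed, GAGGUAG at bases 2 to 8 (in capitals). The following 5 show how members of the family differ outside the seed.
mmu-let-7a-5p: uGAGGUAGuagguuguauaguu
mmu-let-7d-5p: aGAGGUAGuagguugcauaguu
mmu-let-7e-5p: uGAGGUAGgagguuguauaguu
mmu-let-7i-5p: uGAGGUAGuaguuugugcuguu
mmu-miR-98-5p: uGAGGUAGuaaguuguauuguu

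The reverse complement of that seed, CTACCTC, was searched in the longest annotated 3′ UTR of each gene (GENCODE, mm10, transcript strand only). It occurred 4 times in Hmga2 (a 3′ UTR of 3014 bases), 4 times in Igf2bp1 (6337 bases), 4 times in Lin28b (4445 bases), and 1 time each in Hmga1, Hmga1b, Igf2bp2 and Igf2bp3. The sites of the 5 genes that could be tested, with the 1 of Igf2bp3 and the first of Lin28b, are given with the match in capitals.
Hmga1 site 1 (chr17:27563277-27563299, plus strand): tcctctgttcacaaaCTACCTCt
Hmga1b site 1 (chr11:120763998-120764020, plus strand): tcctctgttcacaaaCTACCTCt
Hmga2 site 1 (chr10:120364224-120364246, minus strand): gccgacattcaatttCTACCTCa
Hmga2 site 2 (chr10:120362987-120363009, minus strand): ccccactcctcaataCTACCTCt
Hmga2 site 3 (chr10:120362549-120362571, minus strand): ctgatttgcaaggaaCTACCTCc
Hmga2 site 4 (chr10:120361691-120361713, minus strand): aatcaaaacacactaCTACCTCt
Igf2bp1 site 1 (chr11:95961778-95961800, minus strand): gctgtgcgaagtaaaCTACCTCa
Igf2bp1 site 2 (chr11:95959357-95959379, minus strand): cagcagtgctattaaCTACCTCa
Igf2bp1 site 3 (chr11:95958763-95958785, minus strand): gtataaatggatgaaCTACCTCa
Igf2bp1 site 4 (chr11:95958140-95958162, minus strand): acttttggttttaatCTACCTCt
Igf2bp2 site 1 (chr16:22059473-22059495, minus strand): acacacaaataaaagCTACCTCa
Igf2bp3 site 1 (chr6:49086787-49086809, minus strand): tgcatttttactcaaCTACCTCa
Lin28b site 1 (chr10:45381022-45381044, minus strand): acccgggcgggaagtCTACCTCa

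In the sites of Igf2bp2, Igf2bp3, 3 of 4 of Igf2bp1, and the first of Hmga2 and of Lin28b, the match was followed by an A, a flank known to strengthen microRNA sites. The sites of Hmga1 and Hmga1b were the same in all letters shown. Among 12083 tested genes with an annotated 3′ UTR, 10.6% held at least 1 match and 0.0828% (10 genes) held at least 4. Among the 762 tested genes with a 3′ UTR within 10% of the length of that of Hmga2, 2 held at least 4 matches, Hmga2 included, and among the 175 near the length of Igf2bp1 only Igf2bp1 did. A match is a description of letters and not a measured site of let-7 binding, and since the genes were chosen as let-7 targets the presence of matches is not a result.

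Hmga1 lies on chromosome 17 of mm10 (27556497 to 27563674, plus strand, 5 exon blocks), and Hmga1b is a gene of 1 exon block on chromosome 11 (120762794 to 120764419, plus strand). Their coding sequences were identical over 324 of 324 bases, and 84.0% of the 75-base windows of the Hmga1b transcript also occurred in transcripts of Hmga1. Reads in that shared part cannot be assigned to one gene, so the values of both rows are uncertain and were also summed. Hmga1b held 1.07 to 1.37 times the counts of Hmga1 in the 12 libraries. Hmga2 lies on chromosome 10 (120361275 to 120476469, minus strand, 6 exon blocks), and its coding sequence matched that of Hmga1 at 77.5% of 271 aligned bases. Igf2bp1 lies on chromosome 11 (95957163 to 96005940), Igf2bp2 on chromosome 16 (22059009 to 22163299), Igf2bp3 on chromosome 6 (49085223 to 49214957) and Lin28b on chromosome 10 (45376620 to 45486395), all on the minus strand. No 75-base window was shared between Hmga1 and Hmga2, or between Igf2bp1 and Igf2bp2 or Igf2bp3. Hmga1 overlaps AI413582 and Gm49774, Hmga2 overlaps 1700006J14Rik, Igf2bp1 overlaps Gm29202 and Igf2bp3 overlaps Malsu1, each on the opposite strand, and Igf2bp1 also overlaps Mir3063 on its own strand. Whether the counting used strand is not given in the sources used here.

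The promoter windows of the Hmga genes (RefSeq, GRCm38.p6, 250 bases before to 50 after the start) are shown because Hmga1 and Hmga1b share most of the Hmga1b transcript sequence but lie at separate loci. Capitals mark matches on either strand to the GC box GGGCGG, the AP-1 motif TGANTCA or the CCAAT box, the motifs among the 7 searched that occurred in these windows.
Hmga1 (chr17:27556324-27556623, plus strand): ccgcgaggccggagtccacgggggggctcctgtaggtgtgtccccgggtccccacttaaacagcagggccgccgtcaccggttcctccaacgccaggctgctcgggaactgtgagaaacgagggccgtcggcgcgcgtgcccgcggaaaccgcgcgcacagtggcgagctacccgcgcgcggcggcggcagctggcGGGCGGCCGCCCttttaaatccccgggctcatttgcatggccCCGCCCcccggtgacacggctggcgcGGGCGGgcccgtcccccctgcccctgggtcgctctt
Hmga1b (chr11:120762544-120762843, plus strand): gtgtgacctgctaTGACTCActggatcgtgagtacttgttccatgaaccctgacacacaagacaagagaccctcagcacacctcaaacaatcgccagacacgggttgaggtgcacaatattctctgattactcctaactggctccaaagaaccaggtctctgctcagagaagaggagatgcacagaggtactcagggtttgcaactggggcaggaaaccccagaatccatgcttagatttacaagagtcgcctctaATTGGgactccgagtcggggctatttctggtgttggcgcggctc
Hmga2 (chr10:120476420-120476719, minus strand): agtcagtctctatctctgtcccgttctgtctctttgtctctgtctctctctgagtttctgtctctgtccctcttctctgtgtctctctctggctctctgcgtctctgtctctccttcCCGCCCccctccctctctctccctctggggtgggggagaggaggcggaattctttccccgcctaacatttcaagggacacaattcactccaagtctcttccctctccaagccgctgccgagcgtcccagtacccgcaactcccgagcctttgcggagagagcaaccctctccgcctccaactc

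The Hmga1 window was 74.0% G or C and held 4 GC boxes, against 1 in Hmga2 and 0 in Hmga1b, and 35.7% of all 32851 promoter windows held at least 1. The first 2 of those 4, on opposite strands, lie end to end. The Hmga1b window was 51.3% G or C, near the median of 52.7% over genes, and held 1 AP-1 motif (in 7.81% of all windows) and 1 CCAAT box (37.4%). The ETS motif CCGGAAGT (3.89%), the E2F motif TTTNNCGC (5.17%), the E box CACGTG (7.15%) and the TATA box TATAAA (13.6%) occurred in none of these 3 windows, which says only that these letters are not there.

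Read totals ranged from 13031492 to 17750476 counts per library, and 13836 genes passed the filter on low counts, Hmga1, Hmga1b, Hmga2, Igf2bp1 and Igf2bp2 among them. Levels are given as CPM, counts scaled to a common library size by TMM normalisation, and differences as log2 fold changes from the quasi-likelihood test of edgeR, with p-values adjusted over all tested genes. Libraries of the same line deviated together from their treatment means, so a blocked fit was run too, in which the test compared libraries within lines. Its value or call follows the unpaired one where the call differs. Summed over Vim, Fn1, Cdh2, Zeb1, Zeb2 and Sparc, mesenchymal markers reached 3244 to 9702 CPM per library. By contrast, 6 epithelial markers summed to 7.32 to 52.3 CPM, with Krt5 at 0 counts in every library. Of these lists, 5 of 6 mesenchymal and 2 of 6 epithelial markers passed the filter. Markers of mammary epithelium were thus low as a sum, and mesenchymal markers were present. Fibroblasts also make mesenchymal genes, so these markers do not tell spindle-shaped tumour cells from fibroblasts.

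In the DMSO libraries the genes spanned a wide range of levels per kilobase of exon. Hmga1b stood highest at 310 ± 74.4 CPM per kb (SD, n = 3 lines), followed by Hmga1 at 188 ± 61.2, and these neighbours overlapped (lowest Hmga1b value 245, highest Hmga1 value 257). Hmga2 followed at 58.5 ± 19.4 CPM per kb and Igf2bp2 at 27.6 ± 3.78, each below the lowest library of the gene before it. Igf2bp1 averaged 6.74 ± 5.88 CPM per kb, with a spread nearly as large as its mean. Igf2bp3, at 0.0283 ± 0.0109, and Lin28b, at 0.0247 ± 0.0223, could not be told apart.

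**Figure D1:**
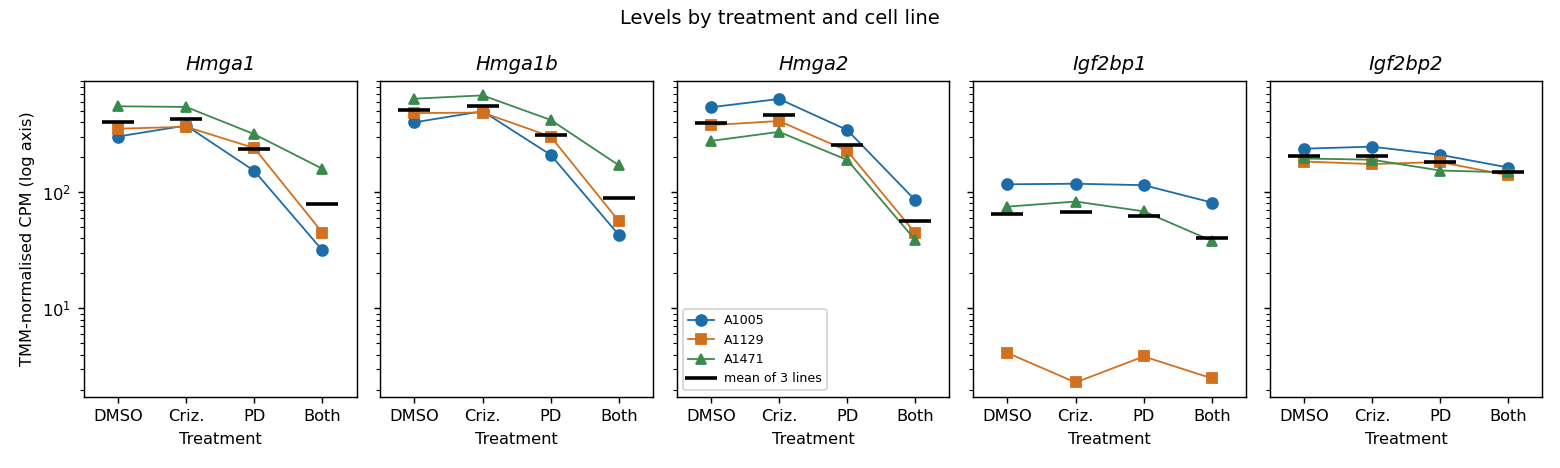
Level of the 5 tested genes in each of the 12 libraries, as TMM-normalised CPM on a log axis, by treatment (Criz. is Crizotinib, PD is PD173074, Both is the combination). Symbols joined by lines are the cell lines and black bars the means of 3 lines. The Hmga genes drop under the combination, from a mean of 396 to 55.9 CPM for Hmga2, while Igf2bp1 is set apart by line A1129.

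The combination lowered all 3 Hmga genes in every line. Hmga2 was at 536, 376 and 275 CPM in the DMSO libraries of A1005, A1129 and A1471, and at 84.9, 44.3 and 38.6 CPM in the combination libraries of the same lines. The highest combination library lay below the lowest DMSO library, and A1005 was the highest line under both treatments. Hmga2 was 7.07-fold lower with the combination (log2 fold change -2.82, SE 0.41, adjusted p = 0.00238), and the lines gave -2.66, -3.08 and -2.83. In the blocked fit the value was -2.86 (SE 0.10, adjusted p = 2.7e-07), the second smallest p of all 13836 genes. Only 151 tested genes (1.09%) had a lower log2 fold change than Hmga2.

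Hmga1 fell from 300.4, 351 and 547 CPM with DMSO to 31.6, 44.8 and 159 CPM under both inhibitors (lines in the same order). A1471 was the highest line before and after. The groups did not overlap, and Hmga1 was 5.10-fold lower (log2 fold change -2.35, SE 0.57, adjusted p = 0.0238). Hmga1b fell from 398, 478 and 635 CPM to 42.8, 56.2 and 170 CPM, a 5.62-fold difference (log2 fold change -2.49, SE 0.50, adjusted p = 0.0104). For Hmga1 the lines gave log2 changes of -3.25, -2.97 and -1.78, so that A1471 fell least, and with 1 library per line and treatment this difference between lines could not be tested. Summed into 1 feature, Hmga1 plus Hmga1b gave -2.43 (SE 0.53, adjusted p = 0.0159), or -2.64 with the block (SE 0.29, adjusted p = 5.4e-05). In bulk samples fewer cells that express a gene and less of its RNA per cell cannot be told apart.

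The unpaired calls of the Hmga genes rested on having all 3 lines. Without A1129 none of the 3 passed (adjusted p 0.244 for Hmga1, 0.177 for Hmga1b and 0.0927 for Hmga2), Hmga1 did not pass without A1005 (0.068), and Hmga2 did not pass without A1471 (0.071). Their log2 fold changes stayed between -3.13 and -2.12 in those fits. In the blocked fit all 3 passed whichever line was left out, with adjusted p-values from 6.2e-05 to 0.00553.

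Igf2bp1 and Igf2bp2 fell less. Igf2bp2, the family member with the steadiest level, was at 236, 183 and 195 CPM with DMSO and at 163, 139 and 148 CPM under both inhibitors, again in the order A1005, A1129 and A1471. The groups did not overlap, but the change of -0.45 (SE 0.18) had an adjusted p of 0.126, and passed only in the blocked fit (-0.44, SE 0.10, adjusted p = 0.0032). Igf2bp1 was at 117, 4.14 and 75 CPM with DMSO and at 81.3, 2.51 and 38.1 CPM with the combination. Its level fell in each line (log2 changes -0.52, -0.70 and -0.98) but the lines lay so far apart that the unpaired SE was 1.56 (log2 fold change -0.68, adjusted p = 0.834). With the block it passed at -0.74 (SE 0.18, adjusted p = 0.00604), and without A1471 the blocked change of -0.60 did not (adjusted p = 0.0667).

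Of the 5 tested genes, 3 passed as lower in the combination against DMSO, where 8.28% of all tested genes did, and 5 with the block, where 26.2% did. The median log2 fold change of the 5 was -2.35, against 0.02 over all tested genes. Hmga1 and Hmga1b share sequence, so this median and all counts out of these 5 genes do not rest on 5 separate genes. Summed, the pair gave -2.43, beside -2.82 for Hmga2, -0.68 for Igf2bp1 and -0.45 for Igf2bp2. None of the 5 passed as higher, which 6.1% of all genes did (28.6% with the block).

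Igf2bp3 and Lin28b were near the limit of detection and were not tested. Igf2bp3 had 1 to 5 counts in every library, 33 in all. The PD173074 libraries, with 1, 1 and 2 counts in A1005, A1129 and A1471, were the lowest per total in each line, against 2, 5 and 3 with DMSO, a difference of 4 counts at most. Lin28b had 0 counts in the 4 libraries of A1005, which allows up to 3 counts in each, 4 to 7 counts in those of A1129, and 2 to 6 in those of A1471. Its paralog Lin28a, the other inhibitor of let-7 maturation, had 0 counts in all 12 libraries.

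Each inhibitor alone was compared with DMSO to ask whether 1 pathway was enough to change these genes. Crizotinib left the 5 genes within -0.01 to 0.21 on the log2 scale in the unpaired fit, and none passed (0% of all tested genes were lower, and 18 of 13836 had an unadjusted p under 0.05). No member had an unadjusted p under 0.05, and DESeq2 and limma-voom called none either. Hmga2 with Crizotinib was at 632, 409 and 329.5 CPM in A1005, A1129 and A1471, above the DMSO library of its own line in each (log2 fold change 0.21, SE 0.39, adjusted p = 1). For Igf2bp1 the sign turned with the block (0.05 against -0.08), and neither value passed.

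With PD173074 the Hmga genes were lower in all 3 lines, by less than with the combination. Hmga2 was at 342, 226 and 189 CPM in A1005, A1129 and A1471, and the highest of these lay above the lowest DMSO library. Its log2 fold change of -0.65 (SE 0.39, adjusted p = 1) did not pass unpaired and passed with the block (-0.64, SE 0.10, adjusted p = 0.0125), though not when any 1 line was also left out. Hmga1 gave -0.76 (SE 0.55) and Hmga1b -0.71 (SE 0.48), with blocked adjusted p-values of 0.221 and 0.176. Igf2bp1 (-0.07) and Igf2bp2 (-0.17) did not pass in either fit. No gene passed as lower unpaired (0% of all tested genes, 307 with an unadjusted p under 0.05 in either direction, none of them a member, and no member by DESeq2 or limma-voom), and with the block 1 of 5 did, where 0.52% of all genes did.

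**Figure D2:**
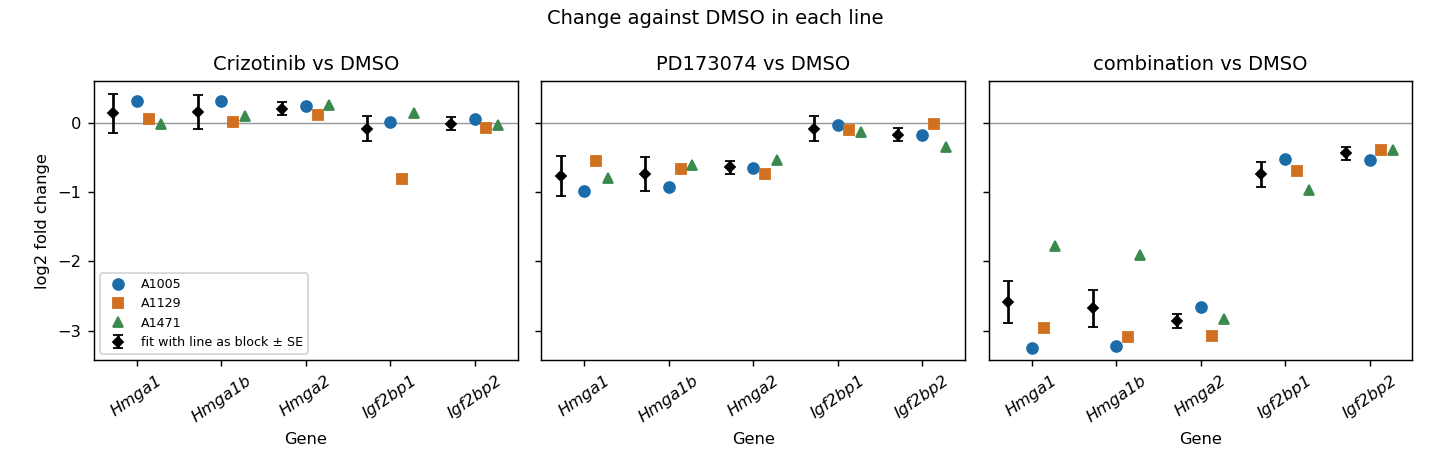
Log2 fold change against DMSO of the 5 tested genes for each inhibitor and the combination. Coloured symbols are the 3 cell lines and black diamonds the blocked fit, with SE. In the combination the Hmga genes lie between -3.25 and -1.78 in each line and the Igf2bp genes between -0.98 and -0.40.

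Adding the second inhibitor was tested against each inhibitor alone, in comparisons that share the combination libraries with the one against DMSO. Against Crizotinib, Hmga2 was 8.16-fold lower (log2 fold change -3.03, SE 0.42, adjusted p = 0.00175), Hmga1 5.44-fold (adjusted p = 0.0214) and Hmga1b 6.17-fold (adjusted p = 0.00877). These 3 of 5 genes passed as lower, with 7.78% of all tested genes, and all 5 with the block, with 26%. Igf2bp1 and Igf2bp2 had blocked changes of -0.66 (adjusted p = 0.011) and -0.43 (adjusted p = 0.00402). Igf2bp1 was not lower in A1129, with log2 changes of -0.54, 0.11 and -1.12 in A1005, A1129 and A1471. The A1129 value rests on 35 counts with Crizotinib and 40 with the combination. Without A1129 none passed unpaired, Hmga1 did not without A1005 (adjusted p = 0.0704) and Hmga2 did not without A1471 (0.0691). With the block and without A1005 neither Igf2bp1 nor Igf2bp2 passed, and without A1471 Igf2bp1 did not.

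Against PD173074, Hmga2 alone passed unpaired (4.51-fold lower, log2 fold change -2.17, SE 0.40, adjusted p = 0.0142), where 3.93% of all tested genes did. It did not pass without A1129 (adjusted p = 0.329) or without A1471 (0.171). Hmga1b gave -1.78 (adjusted p = 0.0722) and Hmga1 -1.59 (adjusted p = 0.15), and the A1471 combination library of Hmga1 (159 CPM) lay above the A1005 library with PD173074 (152 CPM). With the block all 5 passed as lower, with 20.2% of all genes, Igf2bp2 least clearly (-0.27, adjusted p = 0.0484). Igf2bp2 did not pass with the block when any 1 line was left out, and Igf2bp1 did not without A1005 or A1471.

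The departure from additivity asks whether the combination changed a gene by more than the sum of both single changes on the log2 scale. Hmga2 departed by -2.24, -2.47 and -2.54 in A1005, A1129 and A1471, the narrowest spread of the Hmga genes (SD 0.16, n = 3 lines). Hmga1 departed by -2.58, -2.47 and -0.97 and Hmga1b by -2.60, -2.43 and -1.39, both least in A1471. In the unpaired fit none of the 5 passed (Hmga2 -2.38, SE 0.55, adjusted p = 0.103), where 0.911% of all tested genes passed as lower. The unadjusted p was under 0.05 for Hmga2 (0.00157) and Hmga1b (0.0177), DESeq2 called Hmga2 (adjusted p = 0.00163) and limma-voom called none. With the block 3 of 5 passed, where 10.7% of all genes did, Hmga2 at -2.41 (SE 0.14, adjusted p = 3.0e-05), Hmga1b at -2.09 (SE 0.36, adjusted p = 0.00467) and Hmga1 at -1.95 (SE 0.41, adjusted p = 0.0134). Leaving out A1129 as well ended the calls of Hmga1 (adjusted p = 0.152) and Hmga1b (0.0914) but not that of Hmga2 (0.00399), and leaving out A1005 ended that of Hmga1 (0.052). Igf2bp1 and Igf2bp2 did not pass in any of these fits. In A1129 Igf2bp1 departed in the other direction (0.21), a value that rests on only 35 to 63 counts per library.

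**Figure D3:**
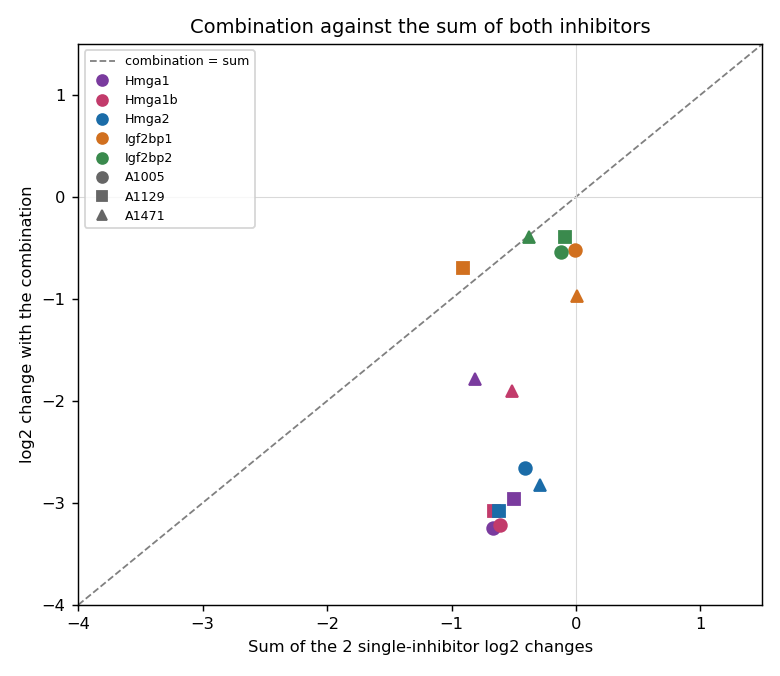
Log2 change with the combination (vertical axis) against the sum of the log2 changes with Crizotinib and with PD173074 (horizontal axis), each against DMSO of the same line, for 5 genes (colours) in 3 lines (symbols). Points below the dashed line changed by more than the sum, by 0.97 to 2.60 on the log2 scale for the Hmga genes.

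Between the lines, Igf2bp1 differed most. Over the 4 treatments it ranged from 2.31 to 4.14 CPM in A1129, from 38.1 to 83.0 in A1471 and from 81.3 to 118 in A1005. All A1129 libraries lay below all others, and A1005 and A1471 overlapped. In a fit with treatment and line as terms, Igf2bp1 was 33.7-fold lower in A1129 than in A1005 (log2 fold change -5.07, SE 0.18, adjusted p = 1.3e-08) and 20.2-fold higher in A1471 than in A1129 (4.34, SE 0.18, adjusted p = 1.1e-07). The 4 libraries of a line are different treatments of cells of 1 tumour, so these p-values measure the spread over treatments and do not speak of other tumours.

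Hmga1 and Hmga2 differed between A1471 and A1005 in opposite directions. Hmga1 was 2.30-fold higher in A1471 than in A1005 (log2 fold change 1.20, SE 0.25, adjusted p = 0.00223), and Hmga1b 2.05-fold higher (adjusted p = 0.00224). Between A1129 and A1005 neither Hmga1 (0.32, SE 0.25, adjusted p = 0.299) nor Hmga1b (0.27, adjusted p = 0.3025) passed. Hmga2 was 1.96-fold lower in A1471 than in A1005 (-0.97, SE 0.08, adjusted p = 5.9e-06) and 1.59-fold lower in A1129 than in A1005 (adjusted p = 6.4e-05). Between A1129 and A1005, 3 of 5 genes passed, where 57.8% of all tested genes did, between A1471 and A1005 all 5 (57.7%), and between A1471 and A1129 4 of 5 (45.9%), so a passing difference between lines was common among all genes. The 1 that did not, Igf2bp2, differed by 0.01 (SE 0.08, adjusted p = 0.913). Without the combination libraries Hmga1 and Hmga2 kept these directions, and in each line Hmga1, Hmga1b and Hmga2 were lowest under the combination.

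After each gene was centred within its line, the Hmga genes varied together over the 12 libraries, which share the treatment effects described above. Pearson's r was 0.998 between Hmga1 and Hmga1b, which share sequence, 0.957 between Hmga1 and Hmga2 and 0.948 between Hmga1 and Igf2bp2, while Igf2bp1 gave 0.642 to 0.737 with the other 4. Among the 9611 tested genes whose average log2 CPM reached 3, those most like Hmga2 were Dusp6 (r = 0.998), Etv5 (0.997), Cks1b (0.993), Etv4 and Ccnd1 (both 0.992). Dusp6 encodes an ERK phosphatase and Etv4 and Etv5 are PEA3 transcription factors, all known as genes that follow ERK activity. Those 3 fell further than Hmga2, by log2 fold changes of -5.03, -4.99 and -4.74. After Hmga1b, the genes most like Hmga1 were Vmn1r43 (0.991), Wipf1 and Hhip (both 0.984) and Palb2 (0.983). After Hmga1, those most like Hmga1b were Vmn1r43 (0.988), Lamb1 and Palb2 (both 0.987) and Nfyb (0.986). Most like Igf2bp1 were Ddx55 (0.971), Mrps18c (0.944), Plekhh3 (0.941) and Med19 (0.934), and the genes nearest to Igf2bp2 were Proser2 (0.979), Zfp64 (0.968), Zbed3 (0.962), Uaca (0.961) and Cmip (0.96). These values describe 12 libraries that share 4 treatments and carry no test.

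The number of let-7 seed matches was set beside the change with the combination. The median log2 fold change was 0.04 over 10799 tested genes without a match, 0.07 over 1121 genes with 1 match, 0.04 over 139 genes with 2 and -0.12 over 24 genes with 3 or more. Their 3′ UTRs differed in length as well, with medians of 1088, 2242, 3518 and 4678 bases. Among the 10 genes with at least 4 matches, Hmga2 had the lowest log2 fold change (-2.82) and was the only one to pass unpaired, Igf2bp1 came next at -0.68, and the others ranged from -0.57 (Mcf2l) to 0.79 (Zbtb37). With the block Igf2bp1 (adjusted p = 0.00604), D10Wsu102e (0.00905) and Zbtb37 (0.000745) passed as well. Hmga1 and Hmga1b, with 1 match each, gave -2.35 and -2.49. The part of let-7 in these changes was not tested.

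**Figure D4:**
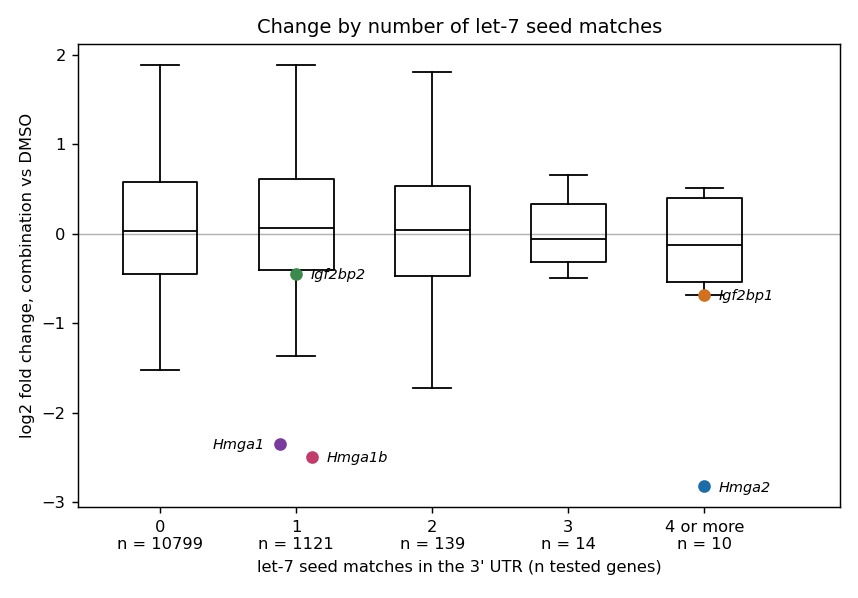
Log2 fold change of the combination against DMSO by number of let-7 seed matches in the 3′ UTR, over 12083 tested genes. Boxes show the quartiles and median, whiskers the 5th to 95th percentile, and labelled points the 5 genes studied. Medians stay near 0 in each class (0.04 without a match, -0.13 with 4 or more). Hmga1 and Hmga1b lie below the whiskers of their class. Hmga2 is the lowest of the 10 genes in its class, and the lowest of so few always lies below the 5th percentile.

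Mature let-7 was not analysed here. The rows of 12 let-7 family genes held 0 to 3 counts per library and none was tested. Of 16 tested genes that process or turn over let-7, only 1 passed unpaired, where 6.1% of all tested genes rose and 8.28% fell. Ago1, an Argonaute protein that carries microRNAs, rose with the combination from 66.0 ± 4.62 to 107 ± 6.18 CPM (log2 fold change 0.70, SE 0.12, adjusted p = 0.0057). With the block 3 rose and 5 fell, near the shares over all tested genes (28.6% and 26.2%), among the latter Xpo5, which exports microRNA precursors from the nucleus (-0.76, adjusted p = 0.00026), and Khsrp, which binds them (-0.44, adjusted p = 0.00175). The median over the 16 was -0.17, against 0.02 over all genes. Drosha (-0.10, adjusted p = 0.926) and Dicer1 (-0.21, adjusted p = 0.795), the nucleases that cut the precursors, did not pass.

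Other genes known as let-7 targets mostly did not pass unpaired. Of 19 tested, 1 fell, Ccnd1 (cyclin D1), from 996 ± 260.1 to 25.5 ± 8.37 CPM (log2 fold change -5.29, SE 0.36, adjusted p = 4.6e-05), and with the block 8 fell and 1 rose. Over all tested genes 8.28% fell unpaired, and with the block 26.2% fell and 28.6% rose. Thbs1, which encodes the matrix protein thrombospondin 1, gave 3.56 (adjusted p = 0.0867, block 0.001). The list's median was -0.31.

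The other high mobility group genes were followed as relatives of the Hmga genes. Of 11 tested, 2 fell, Hmgb2 from 290 ± 80.0 to 69.0 ± 21.3 CPM (log2 fold change -2.07, SE 0.35, adjusted p = 0.0047) and Hmgb1 from 248 ± 58.4 to 129 ± 38.3 CPM (-0.94, SE 0.27, adjusted p = 0.0434). With the block 6 fell and 2 rose, and the median of the list was -0.55. The shares over all tested genes were 8.28% lower unpaired, and 26.2% lower and 28.6% higher with the block. Hmgb2, which is most abundant in dividing cells, had a log2 fold change closer to that of Hmga1 than to that of Hmgb1.

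Among 7 tested genes reported elsewhere as targets of Hmga proteins, 4 fell, Ccna2 (cyclin A2, -2.45, adjusted p = 0.0175), Ccnb2 (cyclin B2, -1.94, adjusted p = 0.00504), Twist1 (-1.09, adjusted p = 0.00156) and Twist2 (-0.82, adjusted p = 0.0466), the last 2 being transcription factors of epithelial-mesenchymal transition. With the block 6 fell and 1 rose, where 8.28% of all tested genes fell unpaired and 26.2% fell and 28.6% rose with the block. Igf2bp2, already described above, is on this list and is counted among those that fell with the block. Their dependence on Hmga genes was not tested. All 6 proliferation genes fell too, with a median of -2.07 (Top2a -2.55, adjusted p = 0.000104, and Cdk1 -2.30, adjusted p = 4.3e-05), and the part of slower division in the change of the Hmga genes was not tested. Of 10 genes used as a readout of the treatment 9 fell, with a median of -4.01, and the receptors Met (0.30, adjusted p = 0.722) and Fgfr1 (-0.11, adjusted p = 0.711) did not pass.

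Among 9 tested mRNAs known to be bound by Igf2bp proteins 2 fell, Cd44 (a hyaluronan receptor) from 568 ± 140 to 121 ± 51.3 CPM (log2 fold change -2.24, SE 0.31, adjusted p = 0.00181) and Abcb1b (a drug efflux transporter) from 100.5 ± 5.59 to 51.7 ± 8.28 CPM (-0.96, SE 0.14, adjusted p = 0.00211). Myc gave -0.84 (adjusted p = 0.131, block 0.00243), and Actb gave 0.09 (adjusted p = 0.863). With the block 4 fell and 1 rose. For this list and the next, the shares over all tested genes were 8.28% lower unpaired, and 26.2% lower and 28.6% higher with the block. None of 12 writers and readers of the m6A mark, which Igf2bp proteins recognise, passed unpaired, and 2 fell with the block, Rbm15 (-0.41, adjusted p = 0.00878) and Mettl3 (-0.48, adjusted p = 0.0179).

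Of 8 other oncofetal genes, 4 were tested and none passed unpaired. Igf2 (the growth factor whose mRNA gave the Igf2bp family its name), Gpc3, Dlk1 and Sall4 had 0 counts in all 12 libraries. The 4 tested averaged 1.62 (H19) to 8.81 CPM (Afp) with DMSO, and their median log2 fold change in the combination was 1.05. Afp, the fetal serum protein alpha-fetoprotein, gave -1.75 (adjusted p = 0.159) and fell with the block (-1.83, adjusted p = 7.4e-05). Plag1 and Peg10 rose with the block alone (0.97, adjusted p = 0.00727, and 1.48, adjusted p = 0.00754). Over all tested genes 28.6% rose and 26.2% fell with the block in the combination, and these shares also stand beside the blocked marker calls below. H19 had 0 to 173 counts per library and did not pass (1.19, adjusted p = 0.82). Of the markers of other cell types, 4 endothelial markers summed to at most 0.752 CPM, 5 immune markers to 4.54 to 42.3 CPM and 3 adipocyte markers to 1.74 to 65.0 CPM, and no gene of these lists passed unpaired in the combination. With the block Cd68, a macrophage marker, was higher (0.82, adjusted p = 0.00603) and Fabp4, an adipocyte marker, lower (-1.94, adjusted p = 0.000152), as it was with PD173074 (-1.31, adjusted p = 0.0248). Among the markers given first, Sparc (2.02, adjusted p = 0.000552) and Zeb2 (0.51, adjusted p = 0.0133) rose with the block in the combination, 2 of 5 tested mesenchymal markers. Krt18, an epithelial keratin, fell with the block in the combination (-0.996, adjusted p = 0.000225). Krt18 also fell with PD173074 (-1.07, adjusted p = 0.00734), where 0.52% of all tested genes fell with the block. It was 1 of 2 tested epithelial markers, and the other passed in neither fit of the combination. Their median unpaired log2 fold change in the combination was -0.05. The part of these markers in the changes of the Hmga and Igf2bp genes was not tested.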

How the data were processed

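RNA from tumourspheres of 3 cell lines under 4 treatments was sequenced on a NextSeq500 instrument, and the authors deposited unnormalised counts of reads for each Ensembl gene. The reads were aligned to mm10 with STAR, and the submitters' processing notes also name bcl2fastq and HTSeq, without versions. The strand setting, the handling of reads that match several genes and the annotation release are not given in the sources used here. Treatment and line came from the sample labels. The lines are the replicates, with 1 library per line and treatment.

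Low counts were removed with filterByExpr (at least 10 counts, total at least 15). After TMM normalisation, edgeR 4.0.16 (R 4.3.3) was run with its quasi-likelihood test in 1 fit of treatment over 12 libraries, unpaired as in the study's methods, and p-values were adjusted by Benjamini-Hochberg (threshold 0.05). SE is the absolute log2 fold change divided by the square root of F, and per-line values used a prior count of 2. The labels pair libraries of the same line. Their deviations correlated at a mean of 0.871 over 18 pairs, against -0.422 over 36 pairs of different lines, and none of 66 library pairs was identical. Lines were compared in a fit of treatment and line. The alternatives were blocking by line, DESeq2 1.42.0, limma-voom (limma 3.58.1), other size factors and filters, the compared groups alone, a minimum log2 fold change of 1.5, Hmga1 and Hmga1b summed, each line left out and, between lines, no combination libraries. Blocking in DESeq2, and blocking with each line left out, were added with values known. Simulated counts served to check the tests.

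Genes and lists were chosen with earlier results of these data known. All 7 genes are named, and from the lists at most the 4 with the smallest p in the combination and those at 0. Some genes that this rule covers are not reported here. Dicer1, Drosha, Actb, Mcf2l, D10Wsu102e and Zbtb37 were added after their values were seen. Genes most like each member had the highest Pearson r over 12 libraries centred within line. Annotation and lengths came from GENCODE of the same build, and microRNA and promoter sequences from RefSeq tables of GRCm38.p6, with 6 of 7 genes in the promoter table. Counts without molecular identifiers cover counting error only, and 0 counts allow up to 3.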

Additional observations from a re-analysis of the deposited data

Results flagged for a closer look

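The term for the departure from additivity, which compares the effect of PD173074 with and without Crizotinib, passed with the cell line as a block for Hmga1 (-1.95), Hmga1b (-2.09) and Hmga2 (-2.41 on the log2 scale). With 1 line also left out, Hmga2 passed each time, Hmga1 did not without A1129 (adjusted p = 0.152) or A1005 (0.052), and Hmga1b did not without A1129 (0.0914). In the unpaired edgeR fit none of the 3 passed, and unpaired DESeq2 called Hmga2 (adjusted p = 0.00163). Hmga1 and Hmga1b share sequence, so their values may not be independent of each other.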

How the results depend on the processing

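Of 472 gene values recomputed under the alternatives, 397 kept their direction and side of the threshold, 49 newly passed, 17 no longer passed and 9 changed sign, and none of those 9 values passed. Under a replicate block for the cell line, the members called were 1 for PD173074 against DMSO, 5 for the combination against DMSO, against Crizotinib and against PD173074, and 3 for the departure from additivity. DESeq2 with the replicate block gave 1, 5, 5, 4 and 3 members in the same order. In the edgeR fit with the block, 54 list genes were called in the combination against DMSO instead of 24. The share called over all tested genes rose as well, from 14.4% to 54.8%. Unpaired DESeq2 gave 3 members against PD173074 and 1 for the departure, and limma-voom gave 2 against PD173074. In fits of only the libraries compared, which hold fewer samples, the combination gave 1 member against DMSO, 1 against Crizotinib and 0 against PD173074.

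Leaving out 1 line in the unpaired fit gave 0 to 2 members for the combination against DMSO and against Crizotinib, 0 to 1 against PD173074, and 8 to 28 list genes, where A1129 gave the 0 members and A1471 the 8 list genes. With the replicate block and 1 line left out, the combination gave 4 to 5 members against DMSO, 3 to 5 against Crizotinib, 3 to 4 against PD173074 and 1 to 3 for the departure. Requiring an absolute log2 fold change of 1.5 left 1 member between A1129 and A1005, 0 between A1471 and A1005 and 1 between A1471 and A1129.

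The sign changes were of values near 0 and their cause was not tested. Igf2bp1 with Crizotinib went from 0.05 to -0.083 with the replicate block, -0.207 with limma-voom and -0.104 with DESeq2 and the block, and without 1 line it ranged from -0.018 to 0.115 unpaired and reached -0.145 (without A1005) and -0.268 (without A1471) with the block. Igf2bp2 with Crizotinib ranged from -0.05 to 0.009 without 1 line and was 0.005 with the block and without A1129. Igf2bp2 between A1471 and A1129 was -0.01 without the combination libraries. Depth limits Igf2bp3 and Lin28b, at 0 to 7 counts per library.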
